A study of Rattus norvegicus with 2 samples.

Results

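The neutrophils described here were the cells of the rat cheek suture whose highest stage score came from Mmp8, Mmp9, Retnlg and Lrg1. They numbered 404, of 1919 cells gated as neutrophils and 9220 kept cells: 259 came from the distraction library and 145 from the sham library. Cells were kept if they had 500 or more UMIs (counted RNA molecules), 200 or more genes and a mitochondrial share under 25%. Neutrophils were gated by at least 2% of UMIs from S100a8 and S100a9, under 1% from the primary granule genes Mpo, Elane, Prtn3 and Ctsg, and under 5 UMIs of the monocyte and macrophage genes Vcan and Fn1. Over the gated cells, 4 scores were the z-scored mean log counts per 10000 of 4 genes each. Score A used Np4, Defa5, Defa11 and Camp, score B used Ngp, Lcn2, Cd177 and Hp, score C used the 4 genes above, and score D used Ccl6, Il1r2, G0s2 and Ifit3. A cell was placed in the stage of its highest score, so the members were chosen by the measured levels of these genes, which are given as a description.

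The study compared the zygomatic maxillary suture, where cheek bone and upper jaw meet in fibrous tissue, of 4-week-old rats with and without mechanical traction. In the distraction group a W-shaped spring of 0.4 mm nickel-titanium wire with a starting force of 20 g pulled on the joint for 7 days. The sham group, also sampled at 7 days, was operated on and drilled, but carried no spring. Each group is 1 library of crushed tissue captured on a BD Rhapsody cartridge, the sources used here do not say how many rats went into each, and no result below has a replicate check.

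Neutrophils mature through a series of granule programs. Defensins and other primary granule proteins are made first, specific granule proteins such as lipocalin-2 and neutrophilic granule protein (Ngp) follow, and gelatinase granule proteins are made late, after the cells have stopped dividing. Mmp8 codes for the neutrophil collagenase and Mmp9 for gelatinase B, enzymes that are stored in granules and can cut collagen and denatured collagen when they are released. Chemokine receptors and cytokine genes come up as the cells reach the end of this series.

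The 2 libraries held 4889 and 5351 deposited cells, of which 4037 distraction and 5183 sham cells were kept. The shallowest deposited cell had 125 distraction and 920 sham UMIs. The libraries shared 22 cell barcodes, and 0 of them belonged to Mmp8 and Mmp9 stage cells. These cells had a median of 3590 UMIs and 985 genes in the distraction library and of 3505 UMIs and 1042 genes in the sham library. Their median mitochondrial share was 3.18% and 3.15%. S100a8 and S100a9 together took a median of 15.1% of the UMIs of a distraction member and 10.8% of a sham member. Median depth was lower from stage to stage in both libraries, from 14330 and 10182 UMIs in stage A to 5914 and 5458 in stage B and 2511 and 2594 in stage D.

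The 4 genes that chose the cells were present in nearly all of them and at their highest there, but Mmp8 and Mmp9 alone were at least 1.5-fold above both neighbouring stages in both libraries. Counts were summed over the cells of a stage in a library and scaled to a total of 1e+06 (CPM), and levels are compared for the same gene only, since they are not scaled to gene length. Mmp8 stood at 55.5 CPM in stage A, 3234 in B, 10903 in C and 5877 in D of the distraction library, and at 48.7, 3706, 9834 and 5899 in the sham library. Mmp9 went through 12.02, 1087, 4026 and 887 CPM in the distraction library and 11.7, 1239, 3738 and 1035 in the sham library. Both collagen-cutting enzymes were thus lowest in the defensin stage and highest in the stage named after them. Retnlg, which codes for a resistin-like secreted protein, was at 580, 8531 and 5151 CPM in stages B, C and D of the distraction library and at 452, 6692 and 4626 in the sham library. Lrg1, which codes for a secreted leucine-rich glycoprotein, was at 987, 2668 and 2449 CPM and at 959, 2127 and 1999. Stage D therefore held nearly as much Lrg1 as stage C, and the label is carried by Mmp8 and Mmp9.

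**Figure D1:**
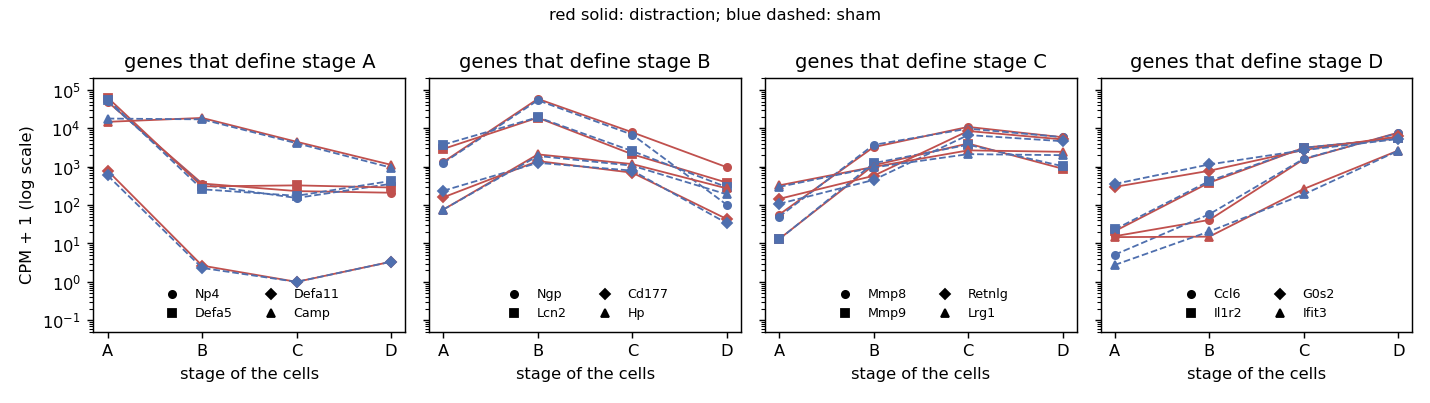
Levels of the 16 stage genes in the 4 neutrophil stages, as CPM + 1 on a log axis. Each panel holds the 4 genes of one score, with distraction in red solid lines and sham in blue dashed lines. Mmp8 and Mmp9 peak in stage C in both libraries, while Retnlg and Lrg1 stay nearer their stage C level in stage D.

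Cell by cell, Mmp8 was found in 259 of 259 distraction and 145 of 145 sham members, at a median of 105 (quartiles 79.7 and 133) and 99.3 (74.6 and 118) counts per 10000. Mmp9 was found in 255 and 144 members at medians of 32.7 and 32.5 counts per 10000. All 4 genes were found in 250 of 259 distraction members (96.5%) and 144 of 145 sham members (99.3%). Because cells of different stages differ in depth, each cell was also thinned to 1000 UMIs. Mmp9 was then found in 89.2% of distraction and 88.9% of sham members, in 39.0% and 40.0% of stage B cells and in 47.5% and 44.5% of stage D cells. In cells outside the gate with at least 5 UMIs of the B cell genes Cd79b, Igll1, Vpreb1 and Ebf1, which should lack it, the thinned share was 0.412% and 0.103%. The unthinned Mmp9 shares were 98.5% and 99.3% in members and 2.16% and 1.81% in cells with B cell genes, whose median depths were 4849 and 3890 UMIs.

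The members lay between stages B and D, in both libraries, in 9 of the 12 remaining stage genes. The exceptions were the defensin genes Np4, Defa5 and Defa11. Ngp, at 58719 and 53866 CPM in stage B, was at 7887 and 6837 in the members and at 971 and 101 in stage D. Lcn2, the lipocalin gene of specific granules, was at 2104 and 2554 CPM in the members against 18955 and 19454 in stage B. Il1r2, the decoy interleukin-1 receptor gene, went from 384 and 424 CPM in stage B to 3124 and 3113 in the members and 5494 and 5513 in stage D. Ccl6, a chemokine gene, was at 1563 and 1619 CPM in the members and 7765 and 7526 in stage D. The second-highest score of a member was D in 171 distraction cells (66.0%) and 93 sham cells (64.1%), and B in 85 (32.8%) and 52 (35.9%), with A in 3 and 0. The stage is a range cut from scores, with 18 distraction members (6.95%) and 16 sham members (11.03%) within 0.1 of the next score. The 34 members just inside this limit had 9604 CPM of Mmp8 and 3486 of Mmp9, and the 48 cells just outside it had 8594 and 2213.

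Sequence upstream of the genes is shown for Mmp8, because it gives the stage its name, and for Irf7, Ifi27 and Oas1a, 3 interferon-induced genes whose levels differed between the libraries below. Each run is the 250 bases before the annotated transcription start, 5′ to 3′ on the gene's strand, from RefSeq on the GRCr8 build, which is not the build named in the submitters' processing notes. The positions are chr8:13008640-13008889 (plus strand) for Mmp8, chr1:205800024-205800273 (minus strand) for Irf7, chr6:128355062-128355311 (plus strand) for Ifi27 and chr12:41330216-41330465 (plus strand) for Oas1a. Capitals mark TTGCNNAA, a C/EBP-type motif, in Mmp8 and the core of the interferon-stimulated response element (GAAA, then NN, then GAAA) in the other genes, on either strand.
Mmp8: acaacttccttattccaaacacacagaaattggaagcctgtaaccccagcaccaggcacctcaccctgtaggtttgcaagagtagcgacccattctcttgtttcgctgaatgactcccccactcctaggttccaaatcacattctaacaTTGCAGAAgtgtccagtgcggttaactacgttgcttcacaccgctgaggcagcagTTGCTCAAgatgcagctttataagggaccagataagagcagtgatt
Irf7: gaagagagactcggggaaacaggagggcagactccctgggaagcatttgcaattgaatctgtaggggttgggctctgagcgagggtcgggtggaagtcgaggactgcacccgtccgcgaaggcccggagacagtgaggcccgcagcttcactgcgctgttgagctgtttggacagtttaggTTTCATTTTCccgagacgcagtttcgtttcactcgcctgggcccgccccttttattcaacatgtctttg
Ifi27: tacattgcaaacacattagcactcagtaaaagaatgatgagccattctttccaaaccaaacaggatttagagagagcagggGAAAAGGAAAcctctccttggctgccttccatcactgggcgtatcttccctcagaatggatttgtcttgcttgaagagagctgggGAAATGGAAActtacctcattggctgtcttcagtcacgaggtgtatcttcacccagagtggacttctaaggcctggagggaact
Oas1a: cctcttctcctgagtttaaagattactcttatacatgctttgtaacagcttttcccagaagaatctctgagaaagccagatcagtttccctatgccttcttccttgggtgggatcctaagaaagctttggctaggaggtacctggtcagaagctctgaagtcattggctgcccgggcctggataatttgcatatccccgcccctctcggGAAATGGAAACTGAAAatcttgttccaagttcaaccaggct

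TTGCNNAA occurred on either strand in 3085 of 33469 upstream windows of this length (9.22%), and the response element core in 1140 (3.41%). Mmp8 held the C/EBP-type letters at 101 and 46 bases before the start. Of 16 genes that mark the stage, 10 had a window and 2 of these, Mmp8 and Cotl1, held the C/EBP-type letters, while the Mmp9 window was not used here. Of 14 interferon-induced genes, 10 had a window and 6 held the response element core. Irf7 held it once, 69 bases before the start and on the opposite strand, Ifi27 at 169 and 84 bases, and Oas1a at 41 and 35 bases in overlapping matches. The other genes with a match were Oasl2, Ifitm2 and Ifit3. A match is a run of letters and not a measured binding site.

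Beyond the scores, few genes stood at least 1.5-fold above both neighbouring stages in the members. Of 1795 genes with at least 50 CPM in the stage in both libraries, 32 (1.78%) were at least 1.5-fold higher than in stage B and in stage D in both libraries, Mmp8 and Mmp9 among them, which leaves 30 outside the rule. Since the stages were cut from the same cells, this is a description with no test. Crispld2, which codes for a secreted cysteine-rich protein, was at 147, 515 and 156 CPM in stages B, C and D of the distraction library and at 127, 656 and 199 in the sham library. Slc30a1, a zinc exporter gene, was at 75.2 and 62.5 CPM in the members against at most 26.4 in either neighbour. Jam2, a junctional adhesion molecule gene, was at 193 and 150 CPM in the members and at 96.3 and 71.1 in stage B. Prok2, which codes for the chemokine-like prokineticin 2, went from 16.5 and 33.9 CPM in stage B to 92.9 and 82.0 in the members and 43.5 and 44.5 in stage D. Tcn2, which codes for a carrier of vitamin B12, was at 601 and 498 CPM against 293 and 260 in stage B and 286 and 194 in stage D.

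The peak genes had several roles. Cotl1, an actin-binding protein gene, was at 580 and 557 CPM in the members and at 315 and 256 in stage B. Rflnb, whose product binds the actin cross-linker filamin, was at 483 and 424 CPM against 199 and 179. Cpne3, a calcium-dependent membrane-binding copine gene, was at 717 and 746 CPM against 391 and 351. Tmem2, a cell-surface hyaluronidase gene, stood at 89.8 and 119 CPM, and Schip1 at 55.4 and 68.3. Map4k2, a kinase gene, was at 156 and 119 CPM and Nfe2, a transcription factor gene of the blood lineages, at 351 and 348. The 12 genes named here all had lower values in both neighbouring stages of both libraries.

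**Figure D2:**
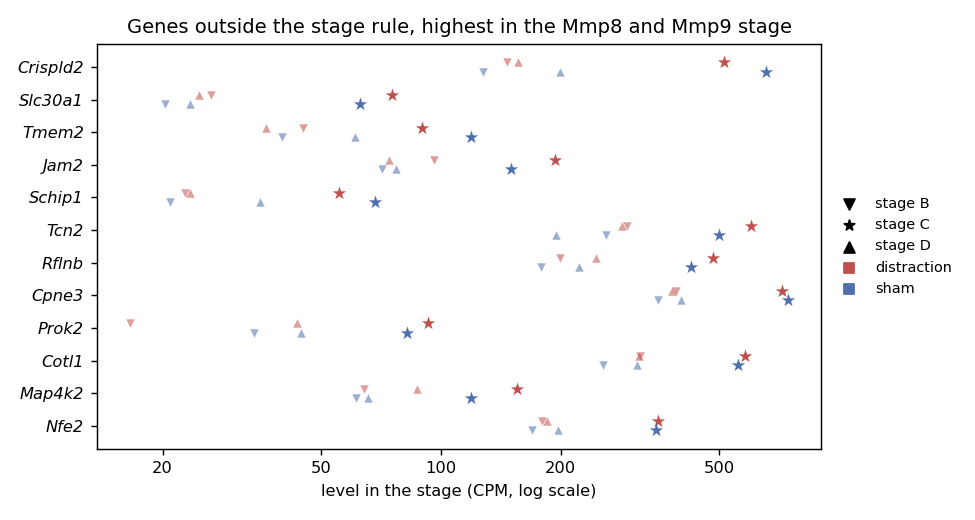
Levels in CPM (log axis) of the 12 named genes that peak in the members, in stage B (down triangles), stage C (stars) and stage D (up triangles), with distraction in red and sham in blue. In each row both stars lie to the right of the triangles of the same colour.

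Against stage B, 545 of 2155 genes with at least 50 CPM in either stage in both libraries (25.3%) were at least 1.5-fold higher in the members in both libraries and 359 (16.7%) lower. The genes with the largest ratios included stefin A genes, which code for cysteine protease inhibitors: Stfa2 went from 11.6 and 3.92 CPM in stage B to 515 and 443 in the members. Stfa2l1 went from 0.827 and 0 CPM to 146 and 102, found in 20 distraction and 8 sham members, with 65.4% of the sham counts in 1 cell. Hopx, a homeodomain-only protein gene, went from 35.1 and 24.8 to 569 and 475 CPM, and the interferon-induced gene Ifit1bl from 7.44 and 1.31 to 221 and 217. Slc2a6, a glucose transporter gene, and Steap4, a metal reductase gene, were also higher, at 113 and 115 CPM and at 89.8 and 58.6 CPM. On the lower side, Qsox1, a sulfhydryl oxidase gene, was at 611 and 701 CPM in stage B and 40.7 and 48.8 in the members. Chit1, the chitotriosidase gene, was at 418 and 397 CPM and then at 26.1 and 21.5. The lipid acyltransferase gene Agpat5 was at 3.13 and 1.95 CPM in the members, Smchd1, a chromatin gene, at 5.22 and 1.95, Piwil2 at 9.40 and 1.95 and Zdhhc23 at 4.18 and 1.95.

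Against stage D, 215 of 2018 genes (10.7%) were higher in the members in both libraries and 273 (13.5%) lower. Ckap4, which codes for an endoplasmic reticulum membrane protein, was at 2548 and 2281 CPM in the members and 322 and 363 in stage D. Plbd1, a phospholipase B-like gene, was at 504.4 and 490 CPM against 71.7 and 56.2, and Fpr2, a formyl peptide receptor gene, at 119 and 129 against 21.2 and 25.8. Rab3d, a secretory vesicle GTPase gene, was at 123 and 91.8 CPM against 17.6 and 4.68, Ugt8 at 75.2 and 91.8 against 14.1 and 11.7 and Orm1, the orosomucoid gene, at 90.9 and 85.9 against 17.6 and 11.7. Lower than in stage D were the chemokine genes Ccl2, at 59.5 and 33.2 CPM against 886 and 1030, and Cxcl1, at 17.8 and 25.4 against 221 and 368. The growth factor gene Vegfa was at 42.8 and 68.3 CPM against 342 and 606, and Csf1 at 20.9 and 5.86 against 180 and 150. Gpnmb was at 105 and 52.7 CPM against 845 and 749, and Mllt6 at 6.27 and 7.81 against 90.5 and 81.9.

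The gene lists were compared with both neighbouring stages. Of genes with at least 50 CPM in either stage in both libraries, 25.3% were higher than in stage B. Against stage D, 13.5% were lower. The list counts instead use genes measured in the members, with at least 50 CPM in 1 library and 30 counts over both. These sets of genes differ, so the shares are a rough guide only. Of 17 measured inflammatory mediator genes, 15 were higher in the members than in stage B and 13 lower than in stage D, in both libraries. Il1b, the interleukin-1 beta gene, was at 2081, 7561 and 17225 CPM in stages B, C and D of the distraction library and at 2477, 7024 and 16364 in the sham library. Of 11 migration receptor genes, 7 were higher than in stage B and 1 lower than in stage D. Cxcr2, the main chemokine receptor gene of neutrophils, went from 248 and 242 CPM in stage B to 520 and 631 in the members, against 566 and 585 in stage D. Csf3r, the receptor gene for the granulocyte growth factor, went from 63.6 and 51.6 to 357 and 334 CPM. Of 17 immediate early genes, which cells switch on within minutes of a stimulus, 9 were lower than in stage D and 1 higher.

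Genes of other cell types were low in the members. Summed over the list, T and NK cell genes stood at 5.22 CPM in distraction and 5.86 in sham members, with 6 and 7 of 8 genes at 0 counts, and endothelial genes at 2.09 and 7.81 CPM, with 9 and 6 of 10 at 0. Platelet genes were at 10.4 and 3.91 CPM, with 5 of 6 at 0 in both. Monocyte and macrophage genes were at 58.5 and 70.3 CPM, with 4 and 6 of 11 at 0, against 658 and 418 outside the S100 gate. Genes of eosinophils, basophils and mast cells were at 39.7 and 37.1 CPM, with 6 and 7 of 11 at 0. B cell genes were at 29.2 and 191 CPM, with 3 of 9 at 0 in both and 1264 and 2333 CPM outside the gate. Fibroblast and bone genes were at 102 and 238 CPM, with 3 and 6 of 10 at 0, and erythroid genes at 1277 and 836 CPM, with 0 and 1 of 9 at 0. At least 3 UMIs of B cell genes were found in 1 of 259 distraction and 6 of 145 sham members, and 0 members had over 3 times the median depth of gated cells. Members of the 2 libraries thus differed in B cell and fibroblast and bone RNA, which was higher in sham. Summed erythroid RNA was higher in distraction members, but 1 distraction cell held 49.2% of the Hba-a2 counts, and without the highest cell of each library the log2 ratio of Hba-a2 was -0.11 against 0.55 with it. The part of such RNA in the ratios below was not tested. Where a value without the cells holding B cell UMIs is given, it does not cover RNA of other cells in the remaining members.

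The members made up a similar share of the neutrophils in the 2 libraries and a larger share of all distraction cells. Among gated neutrophils they were 22.02% in the distraction library (exact Clopper-Pearson 95% interval 19.7 to 24.5) and 19.5% in the sham library (16.7 to 22.6). The ratio of shares was 1.13 (0.917 to 1.39), so the difference was within counting error. Among all kept cells they were 6.42% (5.68 to 7.22) and 2.80% (2.37 to 3.28), a ratio of 2.29 (1.86 to 2.83). Stages A, B and D had ratios of 1.79, 1.76 and 2.50 on this denominator, with intervals of 1.46 to 2.19, 1.497 to 2.07 and 2.06 to 3.03 that overlap that of the members. The intervals cover counting error only and say nothing of the spread between animals.

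**Figure D3:**
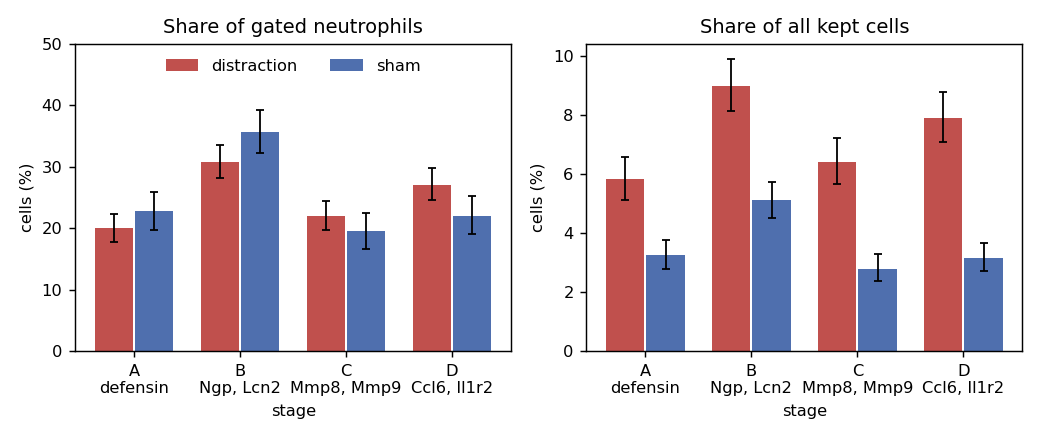
Share of each stage among gated neutrophils (left) and among all kept cells (right) in percent, with distraction in red, sham in blue and exact 95% binomial intervals as error bars. The members (stage C) sit at 22.02% and 19.5% on the left and at 6.42% and 2.80% on the right.

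Within the members, 5 of 13 measured interferon-induced genes were higher in the distraction library, and 5 of 17 immediate early genes were lower. Of the genes for NADPH oxidase, cytoskeleton, migration receptors and gelatinase granules, 0 were past 1.5-fold. Of 2175 genes with at least 50 CPM in 1 library and 30 counts over both, 71 (3.26%) were at least 1.5-fold higher in distraction members and 275 (12.6%) at least 1.5-fold lower. The median ratio of all measured genes was 0.922, or -0.12 on the log2 scale, and with ratios centred on that median the split was 120 higher and 184 lower. S100a8, S100a9 and the stage genes took a larger part of the distraction counts. Scaled to totals without them, 2435 genes reached the minimum, of which 125 were higher and 275 lower. A call is a matter of size alone, and each ratio carries an exact 95% interval for counting error.

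Irf7, a transcription factor gene that amplifies the interferon response, was at 136 CPM in distraction and 50.8 in sham members, from 130 and 26 counts. The ratio was 2.67 (1.74 to 4.25). In stage D it was at 504.2 and 375 CPM, a ratio of 1.35 (1.12 to 1.62), and in stage B it was near 0 in both libraries, at 5.37 and 3.92 CPM. Irf7 was thus low in stage B, intermediate in the members and highest in stage D. Score D includes Ifit3, which is also interferon-induced, so the rule itself may set part of this order. The same holds for members split by their second score, and both are given as a description. At 1000 UMIs per cell it was found in 11.97% of distraction members (8.28 to 16.6) and 4.17% of sham members (1.54 to 8.85), against 0.618% and 0.672% of cells with B cell genes. Without thinning these shares were 25.9%, 13.1%, 2.88% and 2.74%. In members next to stage B, 30 and 3 counts gave a ratio of 5.54 (1.72 to 28.4), and in members next to stage D, 98 and 23 counts gave 2.27 (1.43 to 3.74).

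Ifi27, an interferon-induced gene of a mitochondrial protein, was at 167 and 56.6 CPM, a ratio of 2.95 (1.98 to 4.55), and was found in 81 of 259 and 17 of 145 members. The ratio was 1.77 (1.11 to 2.92) in stage B and 2.28 (1.59 to 3.35) in stage D. Cells outside the S100 gate held 123 and 106 CPM of it, and at 1000 UMIs per cell the share was 12.7% of distraction and 6.25% of sham members against 5.77% and 6.26% of cells with B cell genes. The thinned sham share was therefore near that of cells with B cell genes. Without thinning the shares were 31.3% and 11.7% against 19.9% and 23.8%, with sham members below those cells. Whether Ifi27 in cells with B cell genes is their own RNA or RNA of other cells was not tested. Oas1a, which codes for an oligoadenylate synthetase that senses viral RNA, was at 88.8 and 39.1 CPM, a ratio of 2.27 (1.38 to 3.91), with 2.74 (1.31 to 6.44) in stage B and 1.39 (0.956 to 2.06) in stage D. It was found in 5.79% and 2.78% of thinned members and 0.103% and 0.207% of thinned cells with B cell genes, and without thinning in 20.1%, 10.3%, 1.13% and 1.19%. Ifi27l2b, a relative of Ifi27, was at 80.4 and 41.0 CPM (1.96, 1.20 to 3.35). Slfn4, a Schlafen family gene named after its values were seen, was at 1784 and 1045 CPM (1.71, 1.55 to 1.89).

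Counted over the list, 13 of 25 interferon-induced genes were measured, 5 were higher and 1 lower. Their median log2 ratio was 0.22 against -0.12 for all genes (background 3.26% and 12.6%). The list and the members were chosen with earlier results known, so this count is a description. Ifitm1, Ifitm2, Ifitm6, Irf1 and Oasl had ratios between 0.960 and 1.06. Genes below the minimum included Isg15, a ubiquitin-like modifier gene, with 31 and 3 counts (5.53, 1.72 to 28.3), Rsad2, an antiviral enzyme gene, with 21 and 3 counts (3.74, 1.12 to 19.6), and Rtp4 with 8 and 0, all named after their values were seen. They do not stand for all genes below the minimum. When measured at 20 CPM, 18 genes of the list were measured, 6 higher and 2 lower, against 163 higher and 472 lower of all 3217 genes. In stage B 0 of 7 measured genes of the list were higher and 0 lower (background 1.95% and 7.97%), and Ifi27 and Oas1a were below the minimum there. In stage D 4 of 17 were higher and 1 lower (background 6.12% and 8.63%). Of the 4, Gbp2, at 62.3 and 23.4 CPM (2.66, 1.34 to 5.87), and Isg20, at 95.2 and 39.8 CPM (2.39, 1.41 to 4.31), were not measured in the members. The difference in ratio between stages was not tested. Leaving out every gated cell with 3 or more B cell UMIs left the log2 ratio of Irf7 at 1.44 and of Ifi27 at 1.55.

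**Figure D4:**
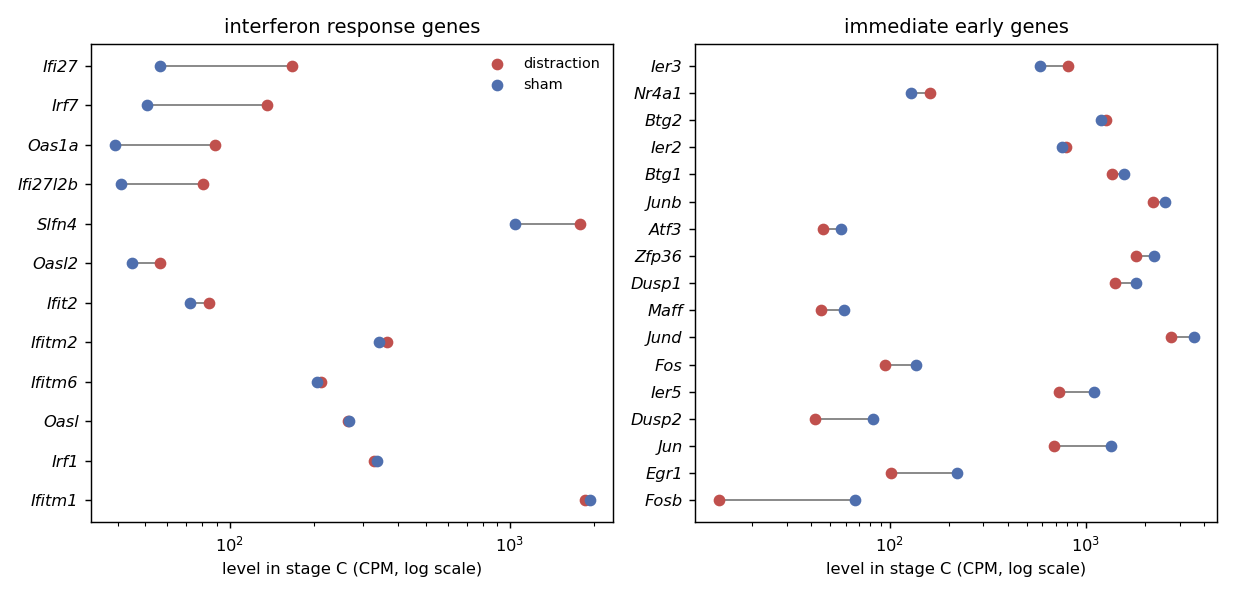
Levels in the members, in CPM on a log axis, of 12 of the 13 measured interferon-induced genes (left) and immediate early genes (right), with distraction in red and sham in blue and a grey line joining the values of a gene. Ifi27, Irf7, Oas1a, Ifi27l2b and Slfn4 lie 1.71 to 2.95 times higher in distraction, while Jun, Egr1, Dusp2, Fosb and Ier5 lie lower.

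Of 17 measured immediate early genes 0 were higher and 5 lower. Their median log2 ratio was -0.35, against 12.6% lower, 3.26% higher and a median of -0.12 over all genes. With ratios centred on their median 1 was higher and 4 lower, and without the highest cell of each gene 3 of 15 were lower. Jun, which codes for a subunit of the AP-1 transcription factor, was at 690 CPM in distraction and 1343 in sham members, a ratio of 0.514 (0.461 to 0.573). The stage B ratio was 0.704 and the stage D ratio 0.608, so this gene was lower in the distraction cells of all 3 stages. Ier5 was at 729 and 1095 CPM (0.665, 0.595 to 0.745). Egr1, a growth-response transcription factor gene, was at 102 and 221 CPM (0.464, 0.350 to 0.613), Fosb at 13.6 and 66.4 (0.204, 0.0990 to 0.398) and Dusp2, a phosphatase gene, at 41.8 and 82.0 (0.509, 0.322 to 0.805). The highest sham cell of each gene held 35.4% of the Egr1, 35.3% of the Fosb and 35.7% of the Dusp2 counts, and without its highest cell Egr1 had a log2 ratio of -0.63. Fos itself was at 95.04 and 137 CPM (0.695, 0.504 to 0.964), Junb at 2181 and 2521 CPM (0.865, 0.807 to 0.928), and Ier3 at 808 and 584 CPM (1.38, 1.21 to 1.59).

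The 2 sides of the stage are given side by side for this list, and the difference between them was not tested. Among members next to stage B, 7 of 14 measured immediate early genes were lower and 0 higher (background 15% and 7.39%). The median log2 ratio was -0.50. Among members next to stage D, 1 of 16 was lower and 1 higher (background 15.1% and 6.5%). The median was -0.15. In stage B itself 7 of 16 were lower and 0 higher (median -0.53, background 7.97% and 1.95%). In stage D 3 of 17 were lower and 1 higher (median 0.00, background 8.63% and 6.12%). Egr1 was at 55.4 and 285 CPM in members next to stage B, a ratio of 0.194 (0.112 to 0.324), and at 136 and 176 CPM in those next to stage D, a ratio of 0.773 (0.538 to 1.12). The sham cell with the most Egr1 was next to stage B and held 40 of the 60 counts there. Without the highest cell of each library, an alternative chosen after seeing the data, Egr1 was at 29.4 and 96.3 CPM (0.305, 0.132 to 0.668) next to stage B and at 124 and 121 CPM (1.03, 0.677 to 1.58) next to stage D. Jun was lower on both sides, at 0.471 (0.406 to 0.547) and 0.583 (0.496 to 0.685). Outside the S100 gate Jun was at 774 and 648 CPM, the opposite order, and the part of RNA from other cells in the ratios of this list was not tested.

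The enzymes that name the stage did not differ by 1.5-fold. Mmp8 had a ratio of 1.11 (1.07 to 1.15) and Mmp9 of 1.08 (1.02 to 1.14), and Retnlg and Lrg1 had 1.27 and 1.25. These genes were used to choose the cells. Of 8 measured genes of the gelatinase granule and surface protease list 0 were called, with a median log2 ratio of 0.00, and Slpi, the secretory leukocyte protease inhibitor gene, was at 3242 and 3267 CPM. Padi4, the enzyme gene for histone citrullination in neutrophil traps, was at 300 and 281 CPM. In the specific granule list 1 of 9 was higher and 0 lower (3.26% and 12.6% over all genes). That gene was Olfm4, which codes for the granule protein olfactomedin 4, at 1966 and 1125 CPM (1.75, 1.59 to 1.92). It was found in only 75 of 259 distraction and 40 of 145 sham members. The Olfm4 ratios in stages A, B and D were 1.36, 1.40 and 1.23. Of 4 primary granule genes 0 were called, and Ctsc, the cathepsin C gene whose product activates the serine proteases, was at 781 and 715 CPM. Np4 and Defa5, defensin genes of score A, were at 231 and 152 CPM (1.52) and at 326 and 174 CPM (1.87), while in stage D their ratios were 0.584 and 0.673. Cells outside the gate held 3790 and 1317 CPM of Np4 and 4486 and 1505 CPM of Defa5, and 1 distraction member held 15.8% and 17.0% of the counts. The part of RNA from such cells in these ratios was not tested.

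Genes for the tools of a neutrophil response mostly stayed within 1.5-fold, as did most genes, of which 3.26% were higher and 12.6% lower. All 5 measured NADPH oxidase genes, which make the oxidative burst, had ratios between 0.940 and 1.06, with Ncf1 at 4549 and 4470 CPM and Cybb at 543 and 578. Of 11 migration receptor genes 0 were called. Cxcr2 was at 520 and 631 CPM (0.825, 0.715 to 0.951), Cxcr4, the receptor gene that holds neutrophils in marrow, at 1124 and 1381 CPM (0.814, 0.740 to 0.896) and Ccr1 at 639 and 453 CPM (1.41, 1.21 to 1.65). All 18 cytoskeleton genes lay within the fold, among them Tmsb4x at 14200 and 13597 CPM. Of 17 inflammatory mediator genes 0 were higher and 2 lower, near the 3.26% and 12.6% over all genes. The 2 were Thbs1 at 47.0 and 85.9 CPM (0.547, 0.353 to 0.848) and Vegfa at 42.8 and 68.3 CPM (0.627, 0.389 to 1.01). Il1b had a ratio of 1.08 (1.03 to 1.12), Cxcl2 of 1.04 (0.988 to 1.09) and Ccl3 of 0.974 (0.938 to 1.01), and their counts in the members exceeded 2000 in each library.

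Of 14 measured genes of secretory vesicles and the plasma membrane, 1 was higher and 3 lower (3.26% and 12.6% over all genes), with a median log2 ratio of -0.10 against -0.12. Fpr1, the formyl peptide receptor gene, was at 67.9 and 37.1 CPM (1.83, 1.08 to 3.23). Cd24, a surface glycoprotein gene that B cells also use, was at 13.6 and 76.2 CPM (0.178, 0.0873 to 0.341). The log2 ratio of Cd24 was -2.28 once gated cells with 3 or more B cell UMIs were left out, against -2.49 with them. Outside the S100 gate Cd24 was at 1008 and 1659 CPM, the same order. Leaving out those cells does not remove RNA of other cells from the remaining members, and its part in the Cd24 ratio was not tested. Cd59, which blocks complement, was at 56.4 and 95.7 CPM (0.589, 0.393 to 0.886), and Alpl, the alkaline phosphatase gene, at 28.2 and 50.8 CPM (0.555, 0.312 to 0.991). Alpl is also a gene of bone-forming cells, whose collagen gene Col1a1 stood at 61.6 and 164 CPM in the members. Outside the S100 gate Alpl was at 67.6 and 38.7 CPM, the opposite order, and in stage B at 168 and 166. The part of RNA from other cells in the Alpl ratio was not tested. Itgb2, Cd53 and Cd44 had ratios between 0.882 and 0.981.

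Among the 12 genes with the highest ratios, Hmox1 had the most counts. It codes for heme oxygenase 1, which breaks down heme, and was at 1733 CPM in distraction and 762 in sham members (2.28, 2.04 to 2.55), with ratios of 1.06 (0.977 to 1.14) in stage B and 2.09 (1.86 to 2.37) in stage D. Cells outside the S100 gate held 2090 and 1207 CPM. At 1000 UMIs per cell Hmox1 was found in 39.8% of distraction and 29.9% of sham members and in 13.6% and 8.95% of cells with B cell genes, and without thinning in 56.0%, 46.9%, 38.3% and 28.3%. Hmox1 was therefore also higher in the distraction library outside the gate and in cells with B cell genes. Whether those cells hold their own RNA or RNA of other cells was not tested. The part of RNA from other cells in the ratio was not tested either. The other 4 measured genes of the iron and lectin list, among them the ferritin genes Fth1 and Ftl1, were not called, with ratios of 1.10 for Fth1 and 1.39 for Ftl1.

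The remaining genes of that group rested on fewer counts. Stfa3, a stefin A gene, was at 107 and 33.2 CPM (3.21, 1.91 to 5.72), but 34.3% of its distraction counts and 58.8% of its sham counts came from 1 cell each. Pigx, an enzyme subunit gene of GPI anchor synthesis, was at 63.7 and 21.5 CPM (2.97, 1.55 to 6.25). Agtpbp1, a deglutamylase gene, was at 58.5 and 21.5 CPM (2.72, 1.41 to 5.76), and both genes had 11 sham counts. In stages B and D the ratios were 0.928 and 0.770 for Pigx and 1.16 and 0.377 for Agtpbp1, with intervals that include 1. Rasa2, which codes for an inhibitor of Ras, was at 96.1 and 46.9 CPM (2.05, 1.30 to 3.36). Pfkfb3, a glycolysis regulator gene, was at 52.2 and 23.4 CPM, Nlrp12, a pattern receptor gene, at 50.1 and 23.4 and Coro1b, a coronin gene, at 53.3 and 25.4. Gpnmb was at 105 and 52.7 CPM, with 47.5% and 48.1% of its counts in 1 cell of each library.

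The 12 genes with the lowest ratios had 15 to 42 counts in distraction and 26 to 61 in sham members. Scarb1, a receptor gene for high-density lipoprotein, was at 38.6 and 119 CPM (0.324, 0.210 to 0.496), with ratios of 0.375 (0.189 to 0.722) in stage B and 0.362 (0.245 to 0.530) in stage D. It was thus lower in the distraction cells of all 3 stages. Lipa, the lysosomal acid lipase gene, was at 37.6 and 89.8 CPM (0.419, 0.263 to 0.662), and in stage B and stage D its ratio was 0.838 and 0.707. Srp68 and Sec63, genes for protein entry into the endoplasmic reticulum, had ratios of 0.297 (0.147 to 0.579) and 0.391 (0.2503 to 0.605). Ndufs7, a respiratory complex I gene, had 0.339 (0.180 to 0.622), Rbpj, the transcription factor gene of the Notch pathway, 0.414 (0.233 to 0.729) and Nrdc, the protease gene nardilysin, 0.401 (0.262 to 0.609). Chsy1, a chondroitin synthase gene, and Tnks2, a tankyrase gene, both had 0.382, Ocel1 0.368, Sart3 0.411 and Fam174a 0.420. In stage D the ratio of Chsy1 was 2.09 (0.838 to 6.23) and that of Tnks2 1.59 (0.610 to 4.86), wide intervals that include 1.

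**Figure D5:**
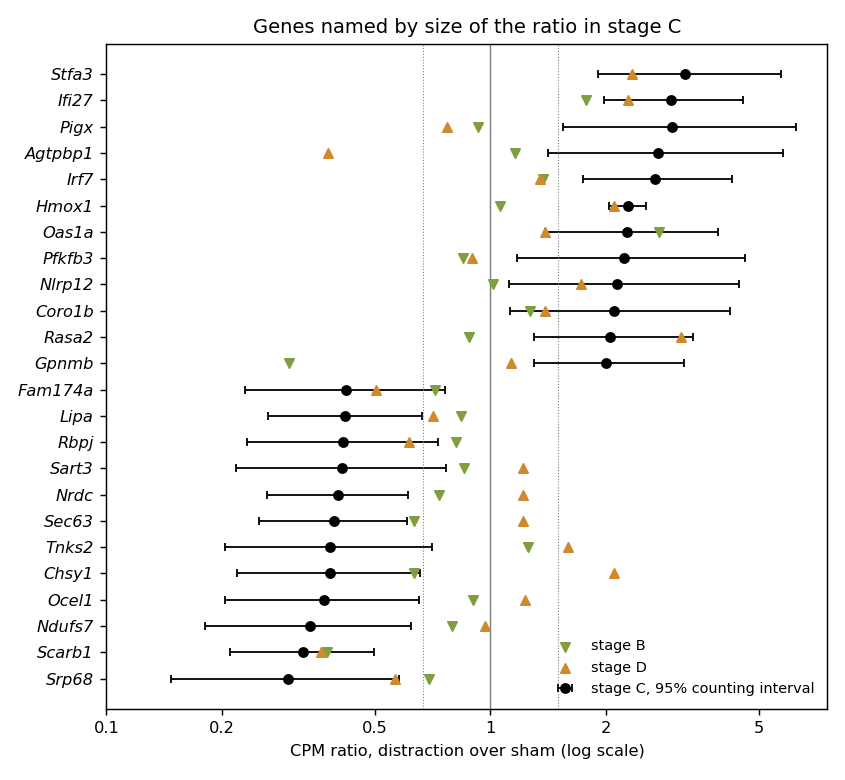
Ratio of CPM, distraction over sham, on a log axis, for the 12 highest and 12 lowest named genes. Black points with bars are the members and their 95% counting intervals, down triangles are stage B, up triangles stage D, and dotted lines mark 1.5-fold. Scarb1 lies below 0.4 in all 3 stages, and the other 11 low genes lie between 0.502 and 2.09 in stages B and D.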

How the data were processed

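The unit is the molecule count: the authors deposited raw UMI counts per gene and cell, made with the BD WTA Rhapsody Analysis Pipeline version 1.5.1 per the file headers. Seurat 3.6 and the Rnor_6.0 build are named in the submitters' processing notes, with no role given. The 2 libraries hold 32078960 distraction and 29924342 sham UMIs over 20560 and 20412 listed genes, and a gene in 1 table only was counted as 0 in the other. Depth limits the precision to the counting intervals given.

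Python 3.11.15 with numpy 2.4.6, scipy 1.17.1, pandas 2.3.3 and matplotlib 3.10.9 was used. Stage z-scores were taken over both libraries pooled. Counts were summed per library and stage and scaled to a total of 1e+06 (CPM). A gene was measured with at least 50 CPM in 1 library and 30 counts over both, and called at a ratio of 1.5 either way. Ratios have exact conditional binomial 95% intervals and shares exact Clopper-Pearson 95% intervals, for counting error only. With 1 library per group no test was run. No doublet caller was run. Cells with at least 3 B cell UMIs or over 3 times the median depth were counted, and left out in an alternative.

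The genes named are the 12 highest and 12 lowest log2 ratios (pseudocount 1 CPM), up to 4 of each gene list, the 12 clearest peak genes, and 6 each way against each neighbouring stage. Stage and gate genes were left out of these choices. Mitochondrial, ribosomal protein, haemoglobin and immunoglobulin genes were left out of all but the list genes. For the 12 highest and 12 lowest only, a gene also needed at least 50% of its level outside the S100 gate, in the library where it was higher. List, peak and neighbouring stage genes did not pass through this limit, and some named genes were far below it. Genes outside this rule are given only as members of a list, or as named after their values were seen. The members, lists and rules were chosen with earlier results of these data known. The ratio script was checked on simulated data. Alternatives changed the depth minimum, score scaling, margin, S100 gate, count scaling, measuring minimum and the cells included. Values of 2 genes of the lists are not reported here, though the list counts include them.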

Additional observations from a re-analysis of the deposited data

Results flagged for a closer look

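Hbb, a beta globin gene of red cells, had a distraction over sham ratio of 0.0458 (0.0303 to 0.0668) in stage B, from 11.98 and 262 CPM, against 2.55 (1.498 to 4.59) in the Mmp8 and Mmp9 stage, from 84.6 and 33.2 CPM. The 2 stages lie on opposite sides of 1, and the difference between them was not tested. In stage D the ratio was 8.50 (5.06 to 15.4). A single cell held 74.1% of the distraction and 52.9% of the sham counts of Hbb in the Mmp8 and Mmp9 stage.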

How the results depend on the processing

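The ratio of shares among gated neutrophils ran from 1.13 to 1.18 over 7 alternatives, and every interval included 1. The number of genes higher in distraction members (71) was 120 with ratios centred on their median, 125 with CPM without the stage genes, S100a8 and S100a9, 163 when measured at 20 CPM, 24 at 100 CPM, 142 in members next to stage B and 139 in members next to stage D. The number lower (275) was 472 when measured at 20 CPM and 112 at 100 CPM. The measuring minimum changed the counts by changing how many genes were tested, 3217 at 20 CPM and 1335 at 100 CPM. Genes tested numbered 2435 without the stage genes, S100a8 and S100a9, 1922 in members next to stage B and 2140 next to stage D. With ratios centred they stayed at 2175. The cause of the changed counts under these settings was not otherwise tested. Of the 71 higher and 275 lower genes, 54 and 239 were also called the same way with z-scores within each library, 51 and 211 with the S100 gate at 5%, 38 and 179 with cells thinned for the scores, and 35 and 117 in members next to stage B. The 30 peak genes became 12, of which 8 were shared, with the S100 gate at 5%.

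Over 15 settings the ratios of 100 genes gave 1500 values, of which 51 values of 22 genes had the other sign. Settings that changed only the measuring minimum left each ratio as reported, so their values could not differ and are no check of it. Centring the ratios, or leaving the stage and S100 genes out of the totals, only shifted all log2 ratios by the same amount. In 10 of the 51 the gene was past 1.5-fold as reported. The log2 ratio of Dusp2 was 0.042 with cells thinned for the scores and 0.17 in members next to stage D. That of Gpnmb was -1.94 with a score margin of 0.25, -1.01 with the S100 gate at 5% and -0.20 with z-scores within each library. Hbb had -0.74, -1.86 and -2.22 under the same settings and -0.65 in members next to stage D. Pfkfb3 had -0.63 in members next to stage B. Irf7, Ifi27, Oas1a, Ifi27l2b, Jun and Hk2 were past 1.5-fold the same way in 15 of 15 alternatives. The 15 include the settings of the measuring minimum, which could not have given another ratio.

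No paired analysis was possible because each group is 1 library. For the same reason no replicate was left out.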

Other observations

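Lists of energy and survival genes are given beside all genes measured in the stage, of which 3.26% were higher and 12.6% lower (median log2 ratio -0.12). Of 12 measured oxidative phosphorylation genes 0 were higher and 4 lower in distraction members (median log2 ratio -0.40). Atp5f1b, an ATP synthase subunit gene, was at 54.3 and 93.7 CPM, and Uqcrfs1, a complex III gene, had a ratio of 0.649. In stage B 0 of 12 were called (background 1.95% higher and 7.97% lower). In stage D 3 of 11 were higher and 1 lower (background 6.12% and 8.63%). With ratios centred on their median, 1 of the 12 was lower. Of 13 glycolysis genes, Pfkfb3 was higher and the hexokinase gene Hk2 was lower, at 156 and 279 CPM (0.557, 0.440 to 0.706). The Hk2 ratio was 0.633 (0.445 to 0.903) in members next to stage B and 0.479 (0.344 to 0.667) in those next to stage D. The Pfkfb3 ratio was 0.647 (0.186 to 2.33), from 7 and 6 counts, next to stage B and 3.82 (1.62 to 10.97) next to stage D. Of 8 apoptosis and survival genes, whose median log2 ratio of -0.12 was that of all genes, 3 were lower, Bcl2l1 at 0.597, Bcl2l11 at 0.621 and Birc3 at 0.662.

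In members next to stage B Olfm4 was at 2747 and 1070 CPM (2.57, 2.22 to 2.98), and in members next to stage D at 1381 and 1163 CPM (1.19, 1.05 to 1.35). The difference between the sides was not tested.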
